A study of Mus musculus with 22 samples.

Results

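The G1 cyclins, their kinases and the CIP/KIP inhibitors decide in most animal cells whether a cell leaves G1 and starts to copy its DNA. D-type cyclins (Ccnd1, Ccnd2, Ccnd3) bind the kinases Cdk4 and Cdk6, and E-type cyclins (Ccne1, Ccne2) bind Cdk2. Both kinds of complex phosphorylate the retinoblastoma protein and so release the E2F transcription factors, and the inhibitors p21 (Cdkn1a) and p27 (Cdkn1b) bind both. In epithelial cells growth factors raise Ccnd1 in particular. These 10 genes were chosen by symbol from the 54514 entries of the deposited expression table, with their values in the comparisons below already known. All 10 were found in the table, and 9 of the 10 were abundant enough to be tested. Ccnd1, Cdk4, Cdk6 and Ccne1 are among the 12 genes that the authors placed at the top of their table, out of identifier order.

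The RNA came from mpkCCD cells (mpkCCDc11, secondary clone 38), an immortalised mouse kidney line of cortical collecting duct origin that carries the SV40 large T antigen, a viral protein that binds the retinoblastoma protein and p53. Cells were grown on permeable supports and then kept in a medium without serum or growth factors, with dexamethasone, in all groups. Wild-type (WT) cells were left unsorted and were given either no dDAVP or dDAVP (desmopressin, which acts on the V2 receptor for vasopressin), in 3 libraries each. Of the reporter lines, named C1, C11, C43 and C50, every one was dDAVP-treated, and GFP-negative and GFP-positive cells were profiled apart, in 2 libraries per line and fraction. The series is titled for variability of aquaporin-2, the water channel that vasopressin induces, and the sorted groups ask how cells of 1 clone that differ in the reporter differ in their RNA. The labels do not say which dDAVP dose or duration applied to a library, what drives the reporter, or whether replicates were separate cultures. The p-values below therefore measure the spread between these libraries, which may be technical, and each clone is 1 isolate. No clone without dDAVP was analysed here, and WT cells were not sorted, so the effects of cloning, sorting and reporter cannot be told apart in a comparison of clones with WT.

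Expression was measured as TPM (transcript abundance scaled for length and library total, so that levels of different genes can be set side by side), and the depth behind each value is unknown. Between 12293 and 14341 genes reached 1 TPM in a library. The treatment and the sort were visible in Aqp2, which stood at 69.1 ± 5.43 TPM (SD, n = 3) without and 2868 ± 139 TPM with dDAVP in WT cells, and in GFP, at 5.31 to 17.57 TPM in the 8 GFP-negative and 1064.51 to 1566.94 TPM in the 8 GFP-positive libraries. Of 10 principal cell markers 9 averaged at least 1 TPM (Scnn1b did not), against 1 of 6 intercalated cell markers (Atp6v1b1), 1 of 4 proximal tubule markers (Lrp2), 0 of 6 fibroblast markers and 1 of 4 endothelial and immune markers (Cd68). Summed fibroblast markers stayed between 0.01 and 1.53 TPM. C50 GFP-negative replicate 1 stood apart, with 8.35% of its TPM in ribosomal protein genes against 3.85 to 6.13% in the other 21 libraries. In bulk RNA such as this, fewer cells of a type and less RNA per cell cannot be told apart.

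Changes are differences in log2(TPM + 1) from limma fits to all genes with a mean of at least 1 TPM. They carry their standard error (SE) and a p-value adjusted by Benjamini-Hochberg over all genes tested, and a gene is called at an adjusted p under 0.05. Over all 4 clones, with the clone as a covariate, 5 of the 9 tested members were called between GFP fractions, and all 5 were lower in GFP-positive cells (Ccnd1, Cdk4, Ccne1, Cdk2 and Cdkn1a). Median-ratio scaling and quantile normalization each called 7, the same 5 lower and Ccnd3 and Cdkn1b higher. Leaving out C50 GFP-negative replicate 1 also gave 7 calls, and leaving out clone C11 or C43 gave 4. With clone means as replicates 3 were called (Ccnd1, Cdk4 and Cdkn1a). The count over all genes moved as well, from 4626 to 3445 without C11, 3321 without C43 and 2406 with clone means. It was 4170 to 6043 when 1 library was left out. The background was high: 35.3% of all tested genes were called, and 23.2% were called lower. Under dDAVP in WT cells 1 of the 9 members was called (Cdk2, lower), against 8.88% of all tested genes. Ccnd1 fell most: it was 8.28- to 27.8-fold lower in the GFP-positive than in the GFP-negative fraction of each clone, while in WT cells it stood at 15.97 ± 4.77 TPM without and 13.84 ± 1.74 TPM with dDAVP (SD, n = 3 each).

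**Figure D1:**
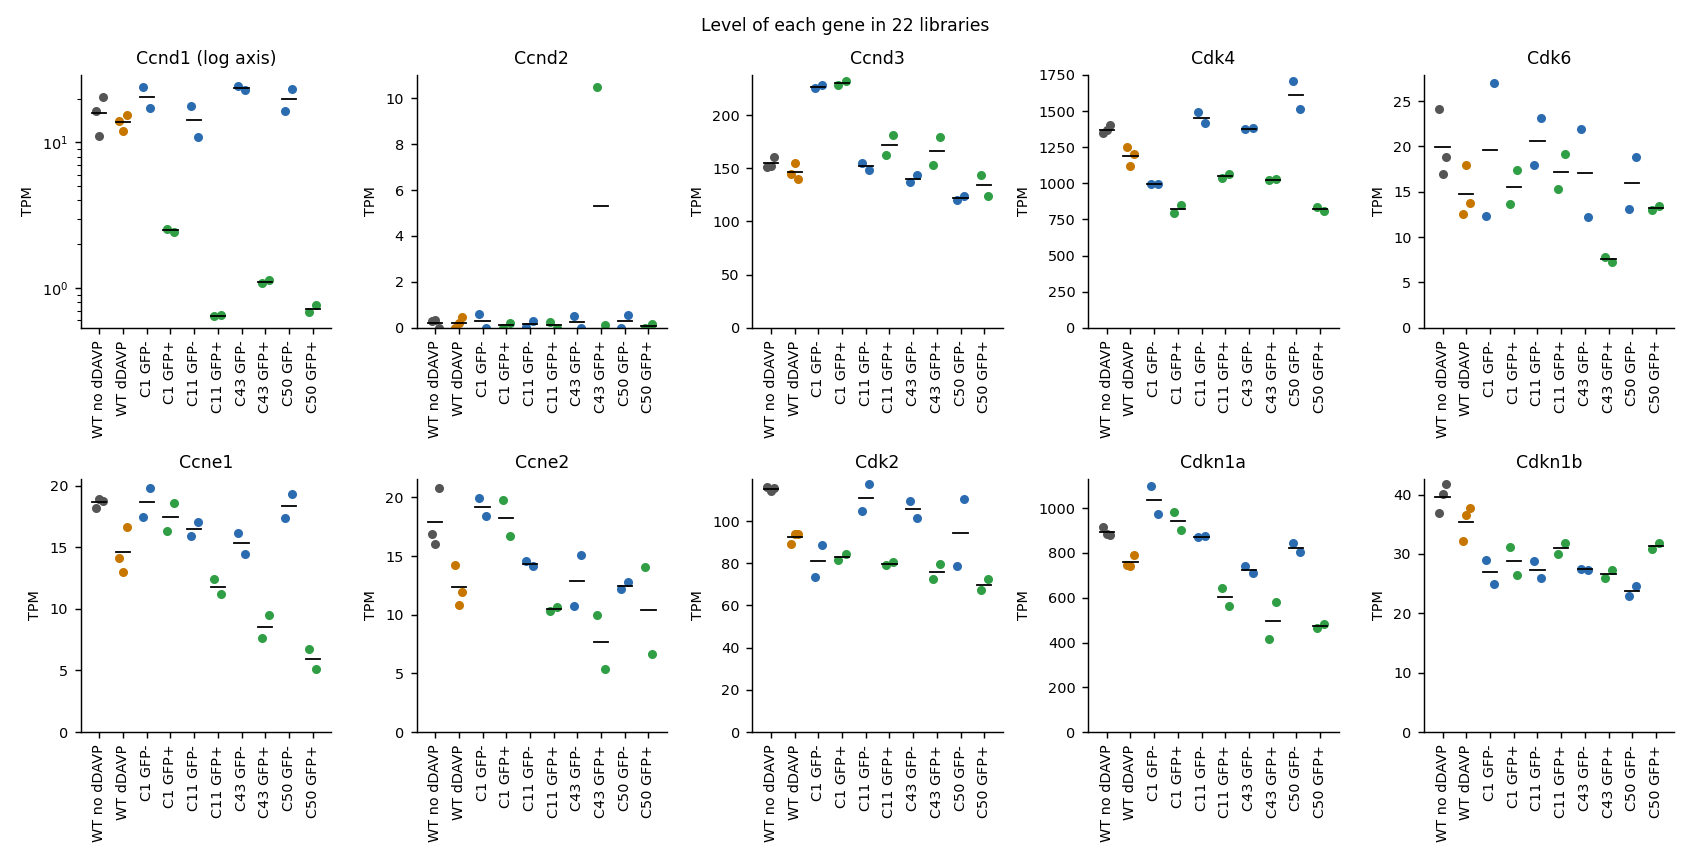
TPM of each of the 10 genes (vertical axes, from 0 except the log axis of Ccnd1) in the 10 groups. Points are libraries (grey WT without dDAVP, orange WT with dDAVP, blue GFP-negative, green GFP-positive) and bars are group means. Ccnd1 sits at 10.95 to 24.37 TPM in the GFP-negative and at 0.64 to 2.55 TPM in the GFP-positive libraries, and Ccnd2 exceeds 0.61 TPM in 1 library.

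Promoter sequence was available for 7 of the 10 genes (9 start sites) in the set of RefSeq promoters used here. Ccnd1, Ccnd2 and Ccne2 had no entry in that set. Those of the other called genes, Cdk4, Ccne1, Cdk2 and Cdkn1a, are shown because they were lower together in GFP-positive cells. Each line gives the 250 bases before the RefSeq start, 5′ to 3′ in the direction of the gene. Capitals mark the E-box CACGTG, any of the E2F words TTTCCCGC, TTTCGCGC, TTTGCCGC and TTTGGCGC, the full cyclic-AMP response element TGACGTCA, or the p53 consensus (2 decamers with no spacer and at most 1 mismatch), each searched on both strands.
Cdk4 (GRCm38.p6, chr10:127063285-127063534, plus strand): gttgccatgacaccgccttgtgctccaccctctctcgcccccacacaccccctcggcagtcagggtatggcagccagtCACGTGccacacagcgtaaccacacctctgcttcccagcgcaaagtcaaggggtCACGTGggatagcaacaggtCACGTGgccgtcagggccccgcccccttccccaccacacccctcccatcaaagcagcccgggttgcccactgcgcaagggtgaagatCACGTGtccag
Ccne1 (GRCm38.p6, chr7:38107491-38107740, minus strand): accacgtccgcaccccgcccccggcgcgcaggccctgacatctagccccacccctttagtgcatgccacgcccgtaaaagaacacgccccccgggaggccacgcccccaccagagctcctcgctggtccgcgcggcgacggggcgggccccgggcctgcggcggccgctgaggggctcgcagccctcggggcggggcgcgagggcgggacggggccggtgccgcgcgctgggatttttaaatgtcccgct
Cdk2 (GRCm38.p6, chr10:128705052-128705301, minus strand): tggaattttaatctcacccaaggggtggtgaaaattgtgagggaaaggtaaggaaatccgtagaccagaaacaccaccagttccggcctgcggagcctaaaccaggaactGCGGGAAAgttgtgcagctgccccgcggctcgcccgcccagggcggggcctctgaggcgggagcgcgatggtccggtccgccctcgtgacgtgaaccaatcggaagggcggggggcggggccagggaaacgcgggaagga
Cdkn1a (GRCm38.p6, chr17:29090729-29090978, plus strand): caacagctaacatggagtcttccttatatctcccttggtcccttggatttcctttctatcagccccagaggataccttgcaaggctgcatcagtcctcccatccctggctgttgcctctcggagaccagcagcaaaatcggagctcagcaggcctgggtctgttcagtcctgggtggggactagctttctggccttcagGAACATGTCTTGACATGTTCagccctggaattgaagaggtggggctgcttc
Cdkn1a (GRCm38.p6, chr17:29093519-29093768, plus strand): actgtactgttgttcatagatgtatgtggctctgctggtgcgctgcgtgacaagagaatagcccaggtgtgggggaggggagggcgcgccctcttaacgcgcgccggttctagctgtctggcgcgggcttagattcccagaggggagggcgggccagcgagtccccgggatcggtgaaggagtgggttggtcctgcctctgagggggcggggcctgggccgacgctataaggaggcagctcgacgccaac
The Cdk4 window holds 4 E-boxes, the letters read by Myc and related factors, at 11, 98, 118 and 172 bases before the start, counted to the first base of each match. An E-box occurs in 6.02% of the 32851 RefSeq mouse promoter windows of that length, and the Cdk6 window, not shown, holds 1. The Cdk2 window holds 1 E2F word, which 1.86% of all windows hold. The upstream Cdkn1a start has a p53 consensus match 51 bases before it, against 0.0578% of all windows, and the downstream Cdkn1a start has none of the 4 motifs. None of the windows shown holds the full cyclic-AMP response element, which 1.55% of all windows hold, and the Ccne1 window holds none of the 4 motifs. These matches describe letters only. The genome build of the expression data is not given in the sources used here.

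Among the D-type cyclins, Ccnd1 (ENSMUSG00000070348), the growth-factor-responsive one, separated the fractions in all 4 clones. In C1 it read 23.91 and 17.26 TPM in the GFP-negative and 2.55 and 2.42 TPM in the GFP-positive libraries. In C11 the values were 17.74 and 10.95 TPM against 0.64 and 0.65 TPM. In C43 they were 24.37 and 22.99 TPM against 1.08 and 1.13 TPM. C50 gave 16.54 and 23.43 TPM in its GFP-negative and 0.68 and 0.76 TPM in its GFP-positive libraries. Every GFP-positive library was thus below every GFP-negative library, and C1 kept the highest GFP-positive level. Ratios of group means were 8.28-fold in C1, 22.2-fold in C11, 21.4-fold in C43 and 27.8-fold in C50.

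The fitted change of Ccnd1 over all clones was -3.23 (SE 0.152, limma adjusted p = 3.53e-09). The single clones gave -2.61 (C1), -3.19 (C11), -3.55 (C43) and -3.59 (C50), each with an SE of 0.243, and limma adjusted p-values of 8e-05, 2.48e-05, 5e-06 and 3.19e-06. The call held under all 29 alternatives tried, between -4.03 and -3.12, with adjusted p from 3.13e-09 to 0.00102. The pseudocount of 1 TPM compresses these changes, since the GFP-positive levels lie near or below 1 TPM. The size of the change was not called different between clones (limma interaction adjusted p = 0.394). LTO1, a gene on the opposite strand, shares 1100 of 4709 exonic bases (23.4%) with Ccnd1 in the GENCODE M21 annotation, and the library kit does not mark strand. LTO1 stood at 14 ± 2.42 TPM in the 8 GFP-negative and 14.9 ± 3.24 TPM in the 8 GFP-positive libraries, a change of 0.07 (SE 0.144, limma adjusted p = 0.757).

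In WT cells Ccnd1 read 16.39, 11.0 and 20.52 TPM without dDAVP and 13.94, 12.05 and 15.52 TPM with it. These groups overlapped, and the change was -0.16 (SE 0.214, limma adjusted p = 0.63). Its sign turned under both other scalings, at 0.002 after median-ratio scaling and 0.073 after quantile normalization, and it was 0.032 without replicate 3 of the untreated cells. The mean GFP difference and the dDAVP change share no library, and their difference for Ccnd1 was -3.08 (SE 0.249, limma adjusted p = 1.03e-06) in 1 model of all 22 libraries. This comparison was added after the values were seen. It called 2 of the 9 members, Ccnd1 and Cdk4, against 13.9% of all tested genes. By group mean, Ccnd1 ran from C43 GFP-negative (23.68 TPM) through C1, C50, untreated WT and C11 GFP-negative to WT with dDAVP (13.84 TPM), and all neighbours in that stretch overlapped. All dDAVP-treated WT libraries then lay above C1 GFP-positive (2.485 TPM), followed without overlap by C43 (1.105 TPM), C50 (0.72 TPM) and C11 (0.645 TPM) GFP-positive, a 36.7-fold range of means. With 2 libraries per group, levels near or below 1 TPM and unknown depth, the order of C43, C50 and C11 and the fold ratios are imprecise. The part of LTO1 in these low levels was not tested.

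Ccnd3 (ENSMUSG00000034165), a D-type cyclin often prominent in differentiating tissues, was the main one in every library, with 83.8 to 99.6% of the D-type cyclin TPM. It read 151.59, 152.14 and 161.09 TPM in untreated and 144.78, 154.91 and 139.82 TPM in dDAVP-treated WT cells, which overlapped (change -0.08, SE 0.07, limma adjusted p = 0.451). The clones differed: the 4 C1 libraries lay at 225.15 to 232.63 TPM, and C50 lay lowest, at 120.33 to 143.84 TPM. Clone means of Ccnd3, averaged over fractions, differed with a limma adjusted p of 6.95e-05. Between fractions its change was 0.14 (SE 0.055, limma adjusted p = 0.062), which was called under 5 of 29 alternatives, both other scalings among them (0.22, adjusted p = 0.0475, and 0.21, adjusted p = 0.00812), as well as without C50 GFP-negative replicate 1 (adjusted p = 0.0447) and without C50 GFP-positive replicate 2 (adjusted p = 0.0433). In C11 both GFP-positive libraries (162.55 and 181.25 TPM) lay above both GFP-negative ones (155.46 and 148.53 TPM). The same held in C43 (153.07 and 179.23 TPM against 136.89 and 143.79 TPM). In C1 and C50 the fractions did not separate.

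Ccnd1 therefore made up 11.3 ± 3.45% of the D-type cyclin TPM in GFP-negative and 0.656 ± 0.277% in GFP-positive libraries (SD, n = 8 each), and 9.26 ± 2.32% and 8.65 ± 1.38% in WT cells without and with dDAVP (SD, n = 3 each). The ranges of the fractions were 6.85 to 15.8% and 0.357 to 1.11%. The sum over the D-type cyclins was 180.2 ± 43 TPM in GFP-negative and 178.2 ± 38.5 TPM in GFP-positive libraries, which overlapped. Ccnd2 (ENSMUSG00000000184) stood between 0 and 0.61 TPM in 21 libraries and was listed at 0 in 7 of the 22. C43 GFP-positive replicate 1 was the exception, at 10.51 TPM against 0.11 TPM in replicate 2. With its mean below 1 TPM in both comparisons Ccnd2 was not tested.

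**Figure D2:**
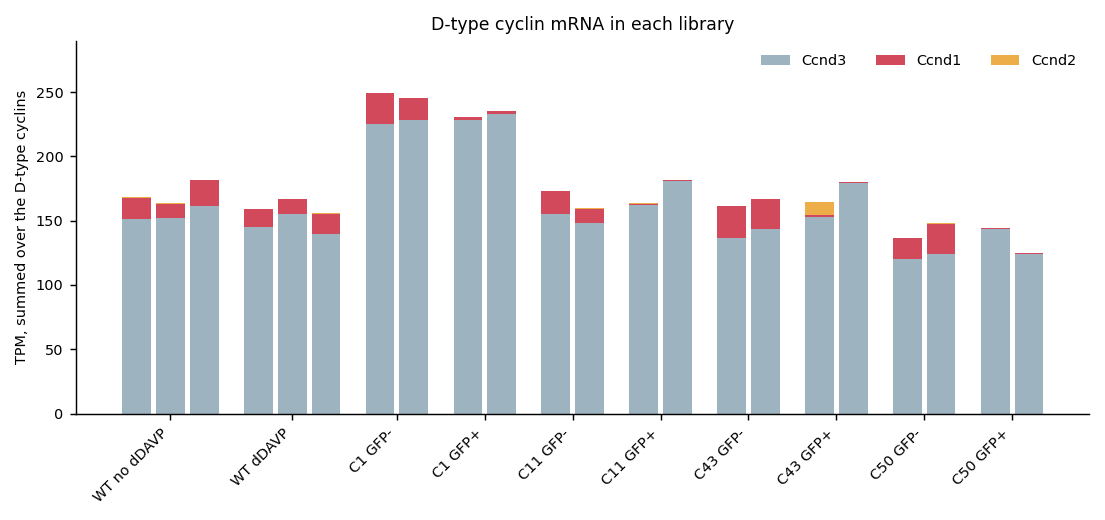
TPM of Ccnd3, Ccnd1 and Ccnd2, stacked, in each of the 22 libraries (1 bar each, vertical axis from 0), grouped as labelled. The red Ccnd1 segment is 6.85 to 15.8% of a GFP-negative bar and 0.357 to 1.11% of a GFP-positive bar, while Ccnd3 makes up at least 83.8% of every bar.

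Of the kinases that D-type cyclins bind, Cdk4 (ENSMUSG00000006728) was far the more abundant, at 796.87 to 1707.25 TPM and 36.9 to 141 times the TPM of Cdk6. It read 995.81 and 993.7 TPM in C1 GFP-negative and 796.87 and 850.3 TPM in C1 GFP-positive cells. In C11 it read 1493.26 and 1416.7 TPM against 1035.65 and 1066.21 TPM. In C43 the values were 1373.75 and 1384.7 TPM against 1023.55 and 1027.91 TPM. C50 showed the widest gap, with 1707.25 and 1516.98 TPM against 833.33 and 806.33 TPM. In each clone both GFP-positive libraries lay below both GFP-negative ones. This held for 2 of the 9 tested members, Ccnd1 and Cdk4, and for 12.2% of all tested genes.

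The change of Cdk4 over all clones was -0.535 (SE 0.079, limma adjusted p = 0.000115), a call that held under all 29 alternatives (-0.62 to -0.39, adjusted p 1.29e-05 to 0.03). The single clones gave -0.27 (C1), -0.47 (C11), -0.43 (C43) and -0.97 (C50), each with an SE of 0.073, and limma adjusted p-values of 0.0472, 0.00306, 0.00258 and 7.3e-06. The C1 call was lost under 19 of 22 alternatives, and after median-ratio scaling the C11 and C43 calls were lost too (-0.315, limma adjusted p = 0.33, and -0.24, limma adjusted p = 0.381). Cdk4 was the only member called for a difference in the size of the change between clones (limma interaction adjusted p = 0.0292), against 0.869% of all tested genes. That call was lost under 16 of 22 alternatives, among them leaving out any 1 of 12 libraries of the 16. Tspan31, on the opposite strand, shares 641 of 3249 exonic bases (19.7%) with Cdk4. It stood at 218.0 ± 41.8 TPM in GFP-negative and 192.0 ± 36.5 TPM in GFP-positive libraries (n = 8 each, change -0.18, SE 0.0569, limma adjusted p = 0.0207), so its part in the Cdk4 values was not tested.

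In WT cells Cdk4 read 1346.52, 1366.46 and 1403.85 TPM without and 1249.49, 1119.5 and 1205.6 TPM with dDAVP. All treated libraries lay below all untreated ones, while the change of -0.205 (SE 0.064) missed the threshold (limma adjusted p = 0.0839). The GFP difference exceeded the dDAVP change by -0.33 (SE 0.067, limma adjusted p = 0.00401), which was lost after median-ratio scaling (-0.43, adjusted p = 0.0619). Across groups Cdk4 was highest in C50 GFP-negative cells (1612 TPM) and lowest in C50 GFP-positive cells (819.8 TPM), a 1.97-fold range, and the last of these overlapped with C1 GFP-positive (823.6 TPM). C43 GFP-negative and untreated WT cells overlapped as well, and the remaining neighbours in the order did not.

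Cdk6 (ENSMUSG00000040274), the other D-cyclin partner, was scattered within groups, with 12.29 and 26.94 TPM in the C1 GFP-negative libraries. The 8 GFP-negative libraries had a lowest, median and highest value of 12.17, 18.41 and 26.94 TPM, and the 8 GFP-positive ones of 7.3, 13.54 and 19.11 TPM. The change of -0.43 (SE 0.177) was not called (limma adjusted p = 0.0739), and became so without C1 GFP-negative replicate 1 (adjusted p = 0.0164) or C50 GFP-negative replicate 1 (adjusted p = 0.0339). C43 GFP-positive cells, at 7.85 and 7.3 TPM, were the only group with all its libraries below the next group in the order. WT cells gave 24.1, 16.98 and 18.85 TPM without and 12.56, 18.0 and 13.81 TPM with dDAVP (change -0.41, SE 0.172, limma adjusted p = 0.154).

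**Figure D3:**
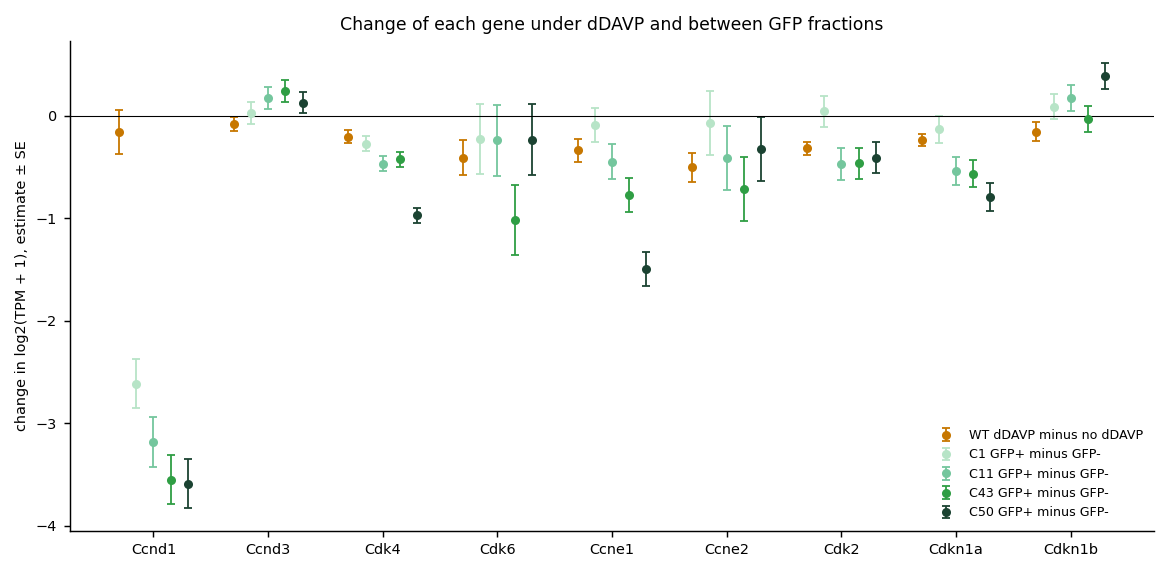
Change in log2(TPM + 1) of the 9 tested genes (vertical axis, limma estimate with its SE as a bar) for dDAVP in WT cells (orange) and for GFP-positive minus GFP-negative cells in each clone (greens, C1 palest to C50 darkest). Ccnd1 lies at -2.61 to -3.59 in the clones and at -0.16 in WT cells, and Ccne1 runs from -0.09 in C1 to -1.49 in C50.

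Ccne1 (ENSMUSG00000002068) is the cyclin whose activity with Cdk2 starts S phase and is itself an E2F target. In C1 it read 17.48 and 19.82 TPM in GFP-negative and 16.36 and 18.58 TPM in GFP-positive libraries. C11 gave 15.91 and 17.03 TPM against 12.4 and 11.21 TPM, and C43 gave 16.19 and 14.47 TPM against 7.61 and 9.53 TPM. In C50 it read 17.35 and 19.3 TPM against 6.71 and 5.1 TPM. The fractions overlapped in C1 and did not in C11, C43 and C50, and the GFP-negative levels of all clones lay within 14.47 to 19.82 TPM. Ratios of the fraction means were 1.07-fold in C1, 1.4-fold in C11, 1.79-fold in C43 and 3.1-fold in C50.

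Over all clones the change of Ccne1 was -0.70 (SE 0.157, limma adjusted p = 0.00286), and it was lost only when clone means served as replicates (adjusted p = 0.0729). Within clones it was called in C43 (-0.78, SE 0.167, limma adjusted p = 0.00896) and C50 (-1.49, SE 0.167, limma adjusted p = 0.000103), and not in C1 (-0.09, limma adjusted p = 0.877) or C11 (-0.45, limma adjusted p = 0.144). The C43 call was lost after quantile normalization (limma adjusted p = 0.0667), without C43 GFP-negative replicate 1 (adjusted p = 0.0892) and without C43 GFP-positive replicate 1 (adjusted p = 0.0556). The difference in size between clones missed the threshold (limma interaction adjusted p = 0.0593). It passed under 4 of 22 alternatives: both other scalings (limma adjusted p = 0.0301 and 0.0265) and leaving out either C50 GFP-negative library (adjusted p = 0.0385 without replicate 1 and 0.00921 without replicate 2). WT cells read 18.22, 18.94 and 18.75 TPM without and 14.12, 13.01 and 16.64 TPM with dDAVP, which did not overlap, with a change of -0.34 (SE 0.111, limma adjusted p = 0.0935).

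Ccne2 (ENSMUSG00000028212), the second E-type cyclin, stood between 5.35 and 20.81 TPM. Its lowest, median and highest values were 10.71, 14.34 and 19.96 TPM in the 8 GFP-negative and 5.35, 10.48 and 19.82 TPM in the 8 GFP-positive libraries, which overlapped. The change of -0.38 (SE 0.152) was not called (limma adjusted p = 0.066), and was called without C50 GFP-positive replicate 1 (adjusted p = 0.0178), a library at 14.11 TPM beside 6.68 TPM in replicate 2. In WT cells it read 16.91, 16.05 and 20.81 TPM without and 14.21, 10.8 and 11.98 TPM with dDAVP. These did not overlap, and the change was -0.51 (SE 0.142, limma adjusted p = 0.0665). C1 held 35.3 to 38.2 TPM of both E-type cyclins together in either fraction, against 11.8 to 20.8 TPM in C50 GFP-positive cells. Ints8, on the opposite strand, shares 17.4% of the Ccne2 exonic bases and stood at 18.4 ± 4.28 and 17.9 ± 3.29 TPM in the fractions (n = 8 each, change -0.02, limma adjusted p = 0.95).

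Cdk2 (ENSMUSG00000025358), the partner of the E-type cyclins, was the one member called under dDAVP. It read 116.25, 114.24 and 115.46 TPM without and 88.95, 93.64 and 94.07 TPM with dDAVP, a change of -0.32 (SE 0.065, limma adjusted p = 0.0291). The treated libraries all lay below the untreated ones. The call was lost under 10 of 14 alternatives, among them both other scalings (-0.148, limma adjusted p = 0.282, and -0.259, adjusted p = 0.0556) and leaving out any library but replicate 2 of the dDAVP group (adjusted p 0.0839 to 0.102). Between fractions Cdk2 changed by -0.33 (SE 0.091, limma adjusted p = 0.0111). That call was lost without clone C11 (limma adjusted p = 0.0976) or C43 (adjusted p = 0.0935) and with clone means as replicates (adjusted p = 0.0941). GFP-negative libraries ran from 73.34 to 117.47 TPM and GFP-positive ones from 67.17 to 84.41 TPM. Both GFP-positive libraries lay below both GFP-negative ones in C11, C43 and C50 and not in C1, where the means were 80.91 and 82.96 TPM.

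In WT cells all 9 tested members had a negative change under dDAVP, with a median of -0.235, beside a median of -0.157 over all tested genes. For 5 of them (Cdk4, Ccne1, Ccne2, Cdk2 and Cdkn1a) the 3 treated libraries lay wholly below the 3 untreated ones, as they did for 28.7% of all tested genes. Relative to the median of all genes, Ccnd1 and Cdkn1b stood at -0.003 and 0.001, Cdk2 at -0.163 and Ccne2 at -0.348. Median-ratio scaling, which moves the median of all genes to 0, turned the sign of Ccnd1 (0.002), Ccnd3 (0.091) and Cdkn1b (0.012) and left 0 members called by limma, and 0 at an unadjusted p under 0.05. In the deposited scaling 6 of the 9 passed at an unadjusted p under 0.05. The share of all tested genes at that p is not given here, so this count is not read as particular to the members.

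Of the inhibitors, Cdkn1a (ENSMUSG00000023067), the p53-induced p21, was abundant at 414.36 to 1097.03 TPM, 15.1 to 38.9 times the TPM of Cdkn1b. It was called lower in GFP-positive cells over all clones, as were Ccnd1, Ccne1, Cdk4 and Cdk2, while Ccnd3, Ccne2 and Cdk6 were not called. C1 read 1097.03 and 974.49 TPM in GFP-negative and 982.97 and 901.2 TPM in GFP-positive libraries, which overlapped. C11 read 871.62 and 874.12 TPM against 641.73 and 562.37 TPM, and C43 read 740.03 and 711.88 TPM against 414.36 and 579.21 TPM. C50 read 843.37 and 802.67 TPM against 465.22 and 484.19 TPM, and in these 3 clones the fractions did not overlap.

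The change of Cdkn1a over all clones was -0.51 (SE 0.089, limma adjusted p = 0.000444) and held under all 29 alternatives (-0.63 to -0.41, adjusted p 9.91e-05 to 0.0289). By clone it was -0.14 (C1), -0.54 (C11), -0.57 (C43) and -0.79 (C50), all with an SE of 0.135, and the limma adjusted p-values were 0.683, 0.0325, 0.0155 and 0.00157. The C11 call was lost under 13 and the C43 call under 5 of 22 alternatives. The size was not called different between clones (limma interaction adjusted p = 0.342). In WT cells Cdkn1a read 917.41, 883.11 and 881.66 TPM without and 747.43, 739.81 and 792.6 TPM with dDAVP, with no overlap. That change of -0.235 (SE 0.059) just missed the threshold (limma adjusted p = 0.0523), was called under 3 of 14 alternatives, quantile normalization among them (-0.371, adjusted p = 0.0287), and was -0.062 after median-ratio scaling (adjusted p = 0.706).

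Cdkn1b (ENSMUSG00000003031), the p27 of resting cells, kept to 22.9 to 41.71 TPM and was highest in WT cells, with 36.88, 40.1 and 41.71 TPM untreated and 32.12, 36.51 and 37.68 TPM with dDAVP. The 8 GFP-negative libraries had a lowest, median and highest value of 22.9, 26.59 and 29.06 TPM, and the 8 GFP-positive ones of 26.03, 30.49 and 31.86 TPM. Its change of 0.15 (SE 0.073) was not called as deposited (limma adjusted p = 0.121) and was called under both other scalings (0.23, adjusted p = 0.0225, and 0.243, adjusted p = 0.022). In C50 it read 22.9 and 24.64 TPM against 30.91 and 31.86 TPM, and was called higher (0.39, SE 0.126, limma adjusted p = 0.0418). This was lost under 12 of 22 alternatives, among them without C50 GFP-negative replicate 1 (0.337, limma adjusted p = 0.101).

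**Figure D4:**
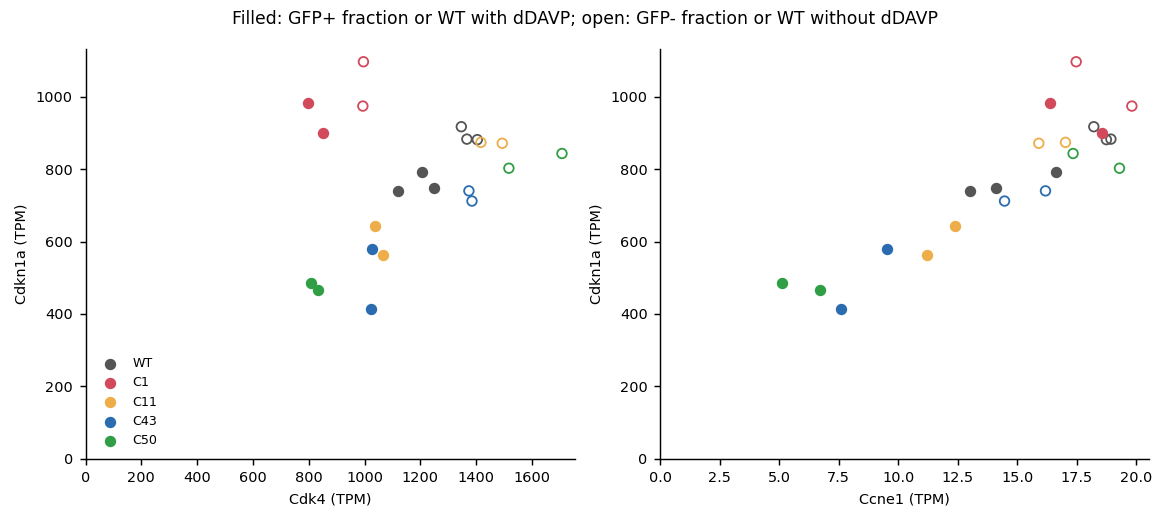
TPM of Cdkn1a (vertical axes, from 0) against Cdk4 (left) and Ccne1 (right) in each of the 22 libraries. Colours are WT cells and the 4 clones, filled points are GFP-positive or dDAVP-treated WT libraries, and open points are GFP-negative or untreated WT libraries. C1 (red) keeps Cdkn1a at 901.2 TPM or more in both fractions, whereas in C50 (green) the GFP-positive points reach at most 484.19 TPM of Cdkn1a and 6.71 TPM of Ccne1.

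C1 differed from the other clones in several members at once. Its Cdkn1a level per Cdk4 was 1.04 ± 0.0855 in GFP-negative and 1.15 ± 0.123 in GFP-positive cells (SD, n = 2 each), whereas the highest value in any other library was 0.681. It had the highest Ccnd3, E-type cyclin and Cdkn1a levels of the 4 clones in both fractions. In a test of clone means averaged over fractions, 6 of the 9 members were called (Ccnd1, Ccnd3, Cdk4, Ccne1, Ccne2 and Cdkn1a, limma adjusted p 6.95e-05 to 0.0386), beside 31.6% of all tested genes. The calls of Ccnd3, Cdk4, Ccne1 and Cdkn1a held under all 22 alternatives, and those of Ccnd1 and Ccne2 were lost under 6 and 13.

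The number of members called between fractions was 2 in C1, 3 in C11 and 4 in C43, all lower, and 4 lower and 1 higher in C50. The share of all tested genes called lower was 4.91% (C1), 5.70% (C11), 12.0% (C43) and 13.8% (C50), and 12.8% were called higher in C50. The clones share 1 estimate of the spread, and these counts moved when 1 library was left out. All genes called then ran from 377 to 2094 in C1 (947 with all libraries), 318 to 2331 in C11 (1041), 858 to 3891 in C43 (2134) and 1793 to 6820 in C50 (3486). The lowest values came without C1 GFP-positive replicate 1, C11 GFP-positive replicate 2, C43 GFP-negative replicate 1 and C50 GFP-positive replicate 2, in that order of clones, and the highest without 1 of the C50 GFP-negative libraries. The members called over the 4 clones went from 14 to 17 when 1 or the other of these 2 libraries was left out. That sum fell to 9 without C43 GFP-negative replicate 1, where C43 kept 2 calls, and to 9 after median-ratio scaling. C1 kept 1 of its 2 calls when any 1 library outside the C50 GFP-negative pair was left out. Without C50 GFP-negative replicate 1 the C50 changes were -3.83 for Ccnd1, -0.89 for Cdk4, -1.57 for Ccne1 and -0.76 for Cdkn1a, and all 4 kept their call. For Ccnd1, Cdk4, Ccne1 and Cdkn1a the fitted change was smallest in C1, also under both other scalings and without any single library. It was largest in C50 for Cdk4 and Ccne1 under the same alternatives, whereas for Ccnd1 C43 and C50 differed by less than 1 SE and changed places without C50 GFP-negative replicate 2 or C43 GFP-negative replicate 2. For Cdkn1a the largest change was in C11 after quantile normalization (-0.705 against -0.651 in C50) and in C43 without its GFP-positive replicate 2. The order of C11 and C43 between them was not shared, since Cdk4 changed by -0.47 in C11 and -0.43 in C43. Aqp2 in the GFP-negative cells of C1, C11, C43 and C50 stood at 69.5, 249, 1624 and 1243 TPM, and in their GFP-positive cells at 2017, 3002, 6952 and 4651 TPM, and its part in the clone order was not tested.

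Over the means of the 10 groups, Pearson's r of log2(TPM + 1) between members reached 0.94, and its lowest value, -0.84 between Ccnd2 and Cdk6, includes the C43 GFP-positive mean of Ccnd2, which its 1 high library sets. It was 0.94 between Ccne1 and Cdkn1a, 0.93 between Ccne2 and Cdkn1a, 0.81 between Cdk4 and Cdk2 and 0.77 between Ccnd1 and Ccne1. It was 0.1 between Cdk4 and Ccne2, 0.34 between Cdk4 and Cdkn1a and 0.38 between Cdk4 and Cdk6, and Ccnd3 had an r of 0.5 with Ccne2 and -0.58 with Cdk4. Cdkn1b had an r between -0.27 and 0.22 with every other member. The groups share clones and treatment, so these are descriptions. Among 10205 genes with a mean of at least 5 TPM, those most like Ccnd1 over the 10 group means were Dyrk3, a protein kinase (r = 0.993), Slc4a11, a membrane transporter (r = 0.993), and Wnt10a, a Wnt ligand (r = 0.99). Slc4a11 averaged 152.0 TPM in GFP-negative and 10.3 TPM in GFP-positive libraries, and Wnt10a 45.7 and 3.08 TPM. Those most like Ccne1 were Cenpm, a centromere protein (r = 0.983), Rpa2, a subunit of the single-strand DNA binding complex of replication (r = 0.974), and Tubb5, a tubulin (r = 0.973). Those most like Ccnd2, Utp11 (r = 0.876), Emc2 (r = 0.848) and Mmachc (r = 0.844), follow a pattern set by its 1 high library.

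Other regulators of the same step were read from a list of 37 genes (INK4 and other inhibitors, retinoblastoma family, E2F factors, ubiquitin ligase parts and their partners), of which 36 were tested. In GFP-positive cells 15 were called lower and 4 higher, against 35.3% of all tested genes called and 23.2% called lower. The median was -0.19 beside -0.06 over all tested genes, and -0.11 under both other scalings. The count of lower genes fell to 5 without clone C43 or with clone means as replicates (then 1 higher), to 7 without clone C11 and to 9 without a filter or without C50 GFP-negative replicate 2, C43 GFP-negative replicate 1 or C11 GFP-positive replicate 2. Mybl2, a transcription factor of cycling cells, averaged 33.6 ± 7.79 TPM in GFP-negative and 11.2 ± 6.67 TPM in GFP-positive libraries (change -1.62, SE 0.21, limma adjusted p = 3.71e-05). Cks1b, which helps the SCF ligase to recognise p27, averaged 688.0 ± 160 and 343.0 ± 30.6 TPM (change -0.98, SE 0.114, limma adjusted p = 1.55e-05). Its relative Cks2 changed by -0.97 (SE 0.121, limma adjusted p = 2.66e-05), and E2f8, a repressor E2F, by -0.91 (SE 0.194, limma adjusted p = 0.00201).

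Under dDAVP 7 of the 36 were called lower and 1 higher, against 8.88% of all tested genes called. The median was -0.22 beside -0.16 over all genes, and -0.06 after median-ratio scaling. The count of lower genes was 3 without replicate 3 of the dDAVP group or without replicate 2 or 3 of the untreated group, 4 without replicate 1 of the dDAVP group and 12 with the number of genes detected as a covariate. These counts leave out the replicate block, whose lower count is given with the pairing of libraries in the last section. E2f7 fell from 41.9 ± 3.37 to 20.5 ± 2.44 TPM (n = 3 each, change -1.0, SE 0.113, limma adjusted p = 0.00425). E2f8 changed by -0.80 (SE 0.142, limma adjusted p = 0.0201), and Skp2, the SCF subunit that targets p27, by -0.76 (SE 0.0931, limma adjusted p = 0.00582). Fbxo4, an F-box protein that has been linked to the turnover of cyclin D1, rose from 21.4 ± 1.21 to 40.3 ± 2.65 TPM (change 0.88, SE 0.0903, limma adjusted p = 0.00276).

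The list of E2F targets of G1/S and S phase also holds more general genes of dividing cells, such as Cdk1, Top2a and Mki67. It has 28 genes, all tested. In GFP-positive cells 21 were called lower and 0 higher, against 23.2% of all tested genes called lower, with a median change of -0.61 beside -0.06 over all tested genes. The count stayed between 15 and 24 under 29 alternatives. Among the 7 genes not called were Gins2, Mcm2, Mcm4 and Mcm6, with changes from -0.04 to 0.04 (limma adjusted p of 0.768 or more). Of these, Mcm2, Mcm4 and Mcm6 were called lower under dDAVP in WT cells (-0.39, -0.39 and -0.4). Ccna2, the S-phase cyclin, averaged 116.0 ± 25.2 TPM in GFP-negative and 46.2 ± 22 TPM in GFP-positive libraries (change -1.41, SE 0.192, limma adjusted p = 5.75e-05). Cdk1, the mitotic kinase, averaged 438.0 ± 118 and 185.0 ± 36.9 TPM (change -1.21, SE 0.164, limma adjusted p = 5.5e-05). Rrm2, which makes deoxynucleotides, changed by -1.25 (SE 0.21, limma adjusted p = 0.000322), and Gins1, of the replicative helicase, by -1.24 (SE 0.175, limma adjusted p = 7.88e-05).

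Under dDAVP in WT cells 21 of the 28 E2F targets were also called lower and 0 higher, against 8.88% of all tested genes called in either direction. The median was -0.50 beside -0.16 over all tested genes, and -0.33 after median-ratio scaling, which sets the latter to 0. All 28 changes were negative under every alternative, while the count of calls was 10 after median-ratio scaling, 11 without a filter or without a variance trend, and 9 to 12 without any 1 library other than replicate 2 of the dDAVP group. The lower count with the replicate block is again left to the last section. Top2a, the topoisomerase of dividing cells, went from 99.5 ± 6.8 to 52.3 ± 9.66 TPM (change -0.93, SE 0.131, limma adjusted p = 0.00937). Mki67, the proliferation marker, changed by -0.86 (SE 0.134, limma adjusted p = 0.0127), Mcm10 by -0.84 (SE 0.108, limma adjusted p = 0.00679) and Uhrf1 by -0.83 (SE 0.0753, limma adjusted p = 0.00167).

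Of 20 p53 targets other than Cdkn1a (19 tested) 4 rose and 4 fell past the threshold in GFP-positive cells, with a median of -0.01 beside -0.06 over all tested genes. These 8 of 19 lie near the 35.3% called among all tested genes. The lower count was 2 without clone C11 or C43 and 6 without clone C50 or C50 GFP-negative replicate 1. The higher count was 6 under both other scalings. Phlda3, an inhibitor of Akt, fell from 81.0 ± 27.6 to 34.4 ± 23.1 TPM (change -1.36, SE 0.115, limma adjusted p = 7.61e-07), and Bbc3, which encodes the death factor PUMA, changed by -0.54 (SE 0.163, limma adjusted p = 0.0174). Btg2, an antiproliferative gene, rose from 1710.0 ± 381 to 2780.0 ± 450 TPM (change 0.72, SE 0.0805, limma adjusted p = 1.1e-05), and Sesn1, a stress-response sestrin, rose by 0.70 (SE 0.111, limma adjusted p = 0.000223). Under dDAVP 2 were called higher and 1 lower, against 8.88% of all tested genes called. The median was 0.002 beside -0.16 over all tested genes, and 0.175 after median-ratio scaling, which sets the latter to 0. All 3 calls were lost without replicate 3 of the untreated group, and 1 higher call was left and the lower one lost without any 1 of the other libraries but replicate 2 of the dDAVP group. These were Sesn2 (0.84, SE 0.124, limma adjusted p = 0.0108), Gdf15 (0.33, SE 0.0588, limma adjusted p = 0.0201) and Sesn1 (-0.58, SE 0.106, limma adjusted p = 0.022). Principal cell markers moved in the same libraries, with 6 of the 9 tested called higher in GFP-positive cells, against 35.3% of all tested genes called. The 1 called lower was Aqp3 (-0.64, limma adjusted p = 0.0195). Their summed TPM ran from 620.0 to 3030.0 in GFP-negative and from 3160.0 to 10800.0 in GFP-positive libraries. Much of these sums is Aqp2 itself, which averaged 796.4 and 4156 TPM in the 2 fractions. The 1 tested intercalated cell marker, Atp6v1b1, was also called higher (0.81, SE 0.217, limma adjusted p = 0.00899), as was the 1 tested proximal tubule marker, Lrp2 (0.56, SE 0.138, limma adjusted p = 0.00525). Under dDAVP 3 of the 9 principal cell markers were called higher (Aqp2, Fxyd4 and Avpr2) and 2 lower, against 8.88% of all tested genes called. Their median was -0.03 beside -0.16 over all tested genes. The lower ones were the sodium channel subunits Scnn1g (-0.75, limma adjusted p = 0.0295) and Scnn1a (-0.60, limma adjusted p = 0.0435), which changed by 1.14 (limma adjusted p = 8.27e-06) and 0.46 (limma adjusted p = 0.0744) between fractions. Summed intercalated cell markers ran from 19.4 to 71.6 TPM in GFP-negative and from 44.7 to 110.0 TPM in GFP-positive libraries, with Foxi1, Slc4a1 and Slc26a4 below 1 TPM on average. The part of any of these markers in the cyclin values was not tested.

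**Figure D5:**
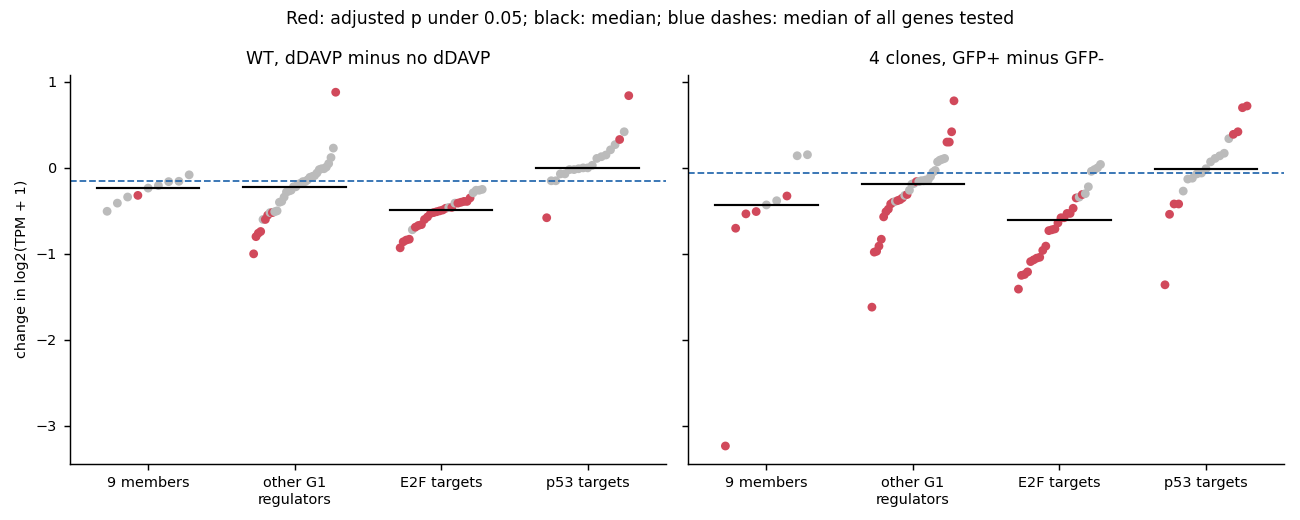
Change in log2(TPM + 1) (vertical axis) of the tested members, other G1 regulators, E2F targets and p53 targets, for dDAVP in WT cells (left) and for GFP-positive minus GFP-negative cells over the 4 clones (right). Each point is a gene, red where called, with the list's median in black and the median of all tested genes in dashes. The E2F targets centre on -0.50 and -0.61, and Ccnd1 is the point at -3.23.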

How the data were processed

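RNA was measured in 22 mpkCCD libraries, in 10 groups taken from the sample titles. Per the labels' protocols, the SMART-Seq HT kit turned 1 ng of RNA into cDNA, and Nextera XT libraries were sequenced paired-end. The submitters' processing notes name STAR and RSEM. Their versions, the genome build and the annotation are not given in the sources used here. The authors deposited TPM per gene and library. TPM keep no depth, so no count model, interval or detection floor was used. The 980 of 55415 lines that share 1 of 79 symbols were summed, which left 54514 entries, and 0 per-sample columns went unused. No pair of libraries held identical values.

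The members and all gene lists were chosen with earlier results of these data known. Values are means ± SD. Changes are differences in log2(TPM + 1) for genes with a mean of at least 1 TPM, so changes of low genes are understated. They were fitted with limma 3.58.1 (R 4.3.3, trended variance, two-sided) to the 6 WT libraries, to the 16 clone libraries with clone as covariate, and, for single clones, the interaction and clone differences, to the same 16 with a mean per clone and fraction. The fit of the difference between GFP and dDAVP changes used all 22. P-values were adjusted by Benjamini-Hochberg over all genes tested (called under 0.05), with no set test. The fits were tested on simulated data. All members are named, and of each list at most 4 called genes per comparison with the largest change and a mean of at least 5 TPM. Some further list genes are named to show exceptions. For the 3 members with the widest range of group means, the 3 most correlated genes of at least 5 TPM are named. Cell type markers were read from lists for principal, intercalated, proximal tubule, fibroblast, and endothelial and immune cells. Alternatives were a pseudocount of 0.1, other filters, median-ratio and quantile scaling, no trend, blocks, a covariate of genes detected, clone means, and leaving out each clone and library. Promoters are from RefSeq (GRCm38.p6), and exon overlaps from GENCODE M21. Python 3.11.15, pandas 2.3.3 and matplotlib 3.10.9 were used.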

Additional observations from a re-analysis of the deposited data

Results flagged for a closer look

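The GFP difference of Cdk4 was not the same size in the 4 clones (limma interaction adjusted p = 0.0292). What drew attention to it was this difference between the clones: the change in log2(TPM + 1) ran from -0.27 in C1 to -0.97 in C50. The interaction was no longer called under 16 of 22 alternatives. Its cause was not tested.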

How the results depend on the processing

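Depth is unknown, so replicate spread alone sets the precision, and with 2 libraries per clone and fraction a lone remaining library was assumed to vary like the other groups. The count of members called under dDAVP (1) became 2 with a filter of 5 TPM, 3 with genes detected as a covariate, and 0 without a filter, after median-ratio scaling, without a trend and with the replicate block (limma; 6, 0, 5 and 4 members at an unadjusted p under 0.05), and 0 to 1 when 1 library was left out. Between fractions the count of 5 became 3 with clone means, 7 under both other scalings, 6 with genes detected as a covariate, 4 without clone C11 or C43, and 5 to 7 when 1 library was left out (7 without C50 GFP-negative replicate 1). The interaction count of 1 became 0 without a filter or a trend (limma; 3 members at an unadjusted p under 0.05 in both), and 0 to 3 when 1 library was left out (2 without C50 GFP-negative replicate 1 and 3 without replicate 2). The added difference of GFP and dDAVP changes called 1 in place of 2 after median-ratio scaling. The 14 calls within clones became 9 after median-ratio scaling and 9 to 17 when 1 library was left out. The cause of these moves was not tested.

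Signs turned for uncalled changes only. Under dDAVP, median-ratio scaling gave Ccnd1 0.002, Ccnd3 0.091 and Cdkn1b 0.012, quantile normalization gave Ccnd1 0.073 and Cdkn1b 0.028, and leaving out 1 library gave Ccnd1 -0.389 to 0.032. Between the fractions of C1, Ccne2 was 0.003 and 0.015 under these scalings, and leaving out 1 library gave Cdk6 -0.766 to 0.306, Ccne2 -0.186 to 0.045, Cdk2 -0.092 to 0.175 and Cdkn1b -0.024 to 0.201. Cdkn1b in C43 was 0.143 and 0.176 under the scalings. In C50, leaving out 1 library gave Cdk6 -0.48 to 0.012 and Ccne2 -0.811 to 0.166.

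Libraries of WT cells with the same number did not deviate together (r = -0.208, -0.0254 and -0.109), nor did those of C1 (0.0544), C11 (0.0151) or C50 (0.0825), with 0.203 in C43. The labels do not say whether a number marks a shared culture or day, so the libraries were treated as unpaired. With the replicate block the genes called under dDAVP went from 1198 to 122. Under the same block E2F targets called lower went from 21 to 1, other G1 regulators from 7 lower and 1 higher to 1 lower, and p53 targets lost their 3 calls. With clone and replicate as a block the genes called between fractions went from 4626 to 4259 and the members stayed at 5. Over all genes, the dDAVP count was 442 without a filter, 757 after median-ratio scaling, 691 without a trend, 2694 with genes detected as a covariate and 314 to 2038 when 1 library was left out. The GFP count was 2406 with clone means, and the interaction count of 114 was 237 after quantile normalization and 42 to 5038 when 1 library was left out, the highest without C50 GFP-negative replicate 2.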
